A study of Homo sapiens with 2 samples.

Results

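The 10 genes described are the FOS family (FOS, FOSB, FOSL1 and FOSL2), the JUN family (JUN, JUNB and JUND), the related factor ATF3, and the early response genes EGR1 and IER3. They were chosen by symbol, and each matched 1 of the 60616 rows of the expression tables. The cells were HSC-3, an established human line of tongue squamous cell carcinoma, and the comparison was between 1 RNA-seq library after FIN56 (1 µM, 48 h) and 1 vehicle library (DMSO, 0.1%). The compound FIN56 triggers ferroptosis, an iron-dependent death driven by lipid peroxides, and the study used a dose below the lethal range. A treatment time is stated for FIN56 but not for DMSO. Since each condition is 1 library of 1 line, the spread between cultures is unknown and no p-value for a difference between conditions can be given.

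AP-1 is a transcription factor made of pairs of basic leucine zipper (bZIP) proteins. FOS proteins pair with JUN proteins but not with each other, whereas JUN proteins can also pair among themselves. The pairs bind the AP-1 site TGACTCA and the related CRE, and they turn on genes for proliferation, migration and matrix breakdown. FOS, FOSB, JUN, JUNB, EGR1, IER3 and ATF3 are early response genes, meaning that their transcripts appear within minutes of a growth factor or stress signal and are short-lived. FOSL1 and FOSL2 usually follow later and last longer. In squamous carcinoma FOSL1, which encodes FRA-1, is known as an abundant AP-1 member under the control of ERK signaling.

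EGR1 and JUND were lower and FOSB was higher in FIN56 treated HSC-3 cells by more than the study's fold of 1.5, and the other 7 genes stayed within it. To show the regulatory sequence of these 3 genes, the 250 bases before their RefSeq start sites (GRCh38.p14) are printed 5′ to 3′ on the strand of the gene. Capitals mark CArG boxes, which bind serum response factor (SRF), the CRE TGACGTCA, and its core TGACGT on either strand.

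EGR1, chr5:138465229-138465478, plus strand: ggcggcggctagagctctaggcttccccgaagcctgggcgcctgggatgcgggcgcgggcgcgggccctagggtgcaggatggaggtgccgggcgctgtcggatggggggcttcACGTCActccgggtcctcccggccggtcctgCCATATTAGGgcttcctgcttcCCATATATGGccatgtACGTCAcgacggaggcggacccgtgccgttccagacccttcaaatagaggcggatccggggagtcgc

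JUND, chr19:18281623-18281872, minus strand: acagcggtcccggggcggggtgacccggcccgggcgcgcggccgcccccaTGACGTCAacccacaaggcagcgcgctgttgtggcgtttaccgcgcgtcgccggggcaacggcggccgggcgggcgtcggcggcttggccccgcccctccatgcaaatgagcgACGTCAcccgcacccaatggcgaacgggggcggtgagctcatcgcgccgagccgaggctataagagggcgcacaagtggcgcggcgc

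FOSB, chr19:45467746-45467995, plus strand: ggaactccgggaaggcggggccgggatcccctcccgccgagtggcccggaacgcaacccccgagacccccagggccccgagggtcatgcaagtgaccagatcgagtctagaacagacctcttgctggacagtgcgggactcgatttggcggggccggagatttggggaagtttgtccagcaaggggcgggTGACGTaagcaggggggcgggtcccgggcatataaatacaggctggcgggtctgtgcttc

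The EGR1 sequence holds 2 CArG boxes, at 96 to 105 and 74 to 83 bases before the start, and 2 CRE cores. The JUND sequence holds 1 complete CRE, at 193 to 200 bases before the start, with a core on each strand inside it, and 1 further core nearer the start. The FOSB sequence holds 1 CRE core, at 55 to 60 bases before the start. Of 35116 RefSeq sequences of this length, 1.16% held a CArG box, 1.65% the CRE, 7.10% the core (which the CRE contains) and 4.20% the AP-1 site TGACTCA, counted on both strands. FOS and FOSL2 each held 1 core, and the sequences of JUN, JUNB and ATF3 held none of these letters. ATF3 had 2 start sites in RefSeq, and no sequence was matched for FOSL1 and IER3. These matches describe letters and do not show binding.

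The libraries held 70184517 (DMSO) and 73062209 (FIN56) expected counts, which are RSEM estimates that divide a read between genes where it fits several. The 10 most abundant genes took 5.85% and 6.15% of these counts, and mitochondrial genes took 4.77% and 5.75%. All 7 epithelial markers, KRT5, KRT14, KRT17, KRT6A, TP63, CDH1 and EPCAM, were expressed, with a summed level of 6698 TPM in DMSO and 6417 TPM in FIN56. Of 9 markers of blood, endothelial, fibroblast and muscle cells, 6 were listed at an FPKM of 0 in both libraries (among them PTPRC, CD3E, PECAM1, COL3A1 and DES), while CD14, VWF and COL1A1 were not (COL1A1 had 4.25 and 2.19 FPKM), and the summed level was 11.9 TPM in DMSO and 11.3 TPM in FIN56. A bulk library does not tell less RNA per cell apart from fewer cells that carry it.

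The levels of the 10 genes spanned a wide range. They are given in TPM, a level scaled for gene length and library depth, so that different genes can be set side by side. IER3, which encodes a regulator of survival in stressed cells, was the highest at 669.5 TPM in DMSO and 563.3 TPM in FIN56. FOSL1 followed with 384.9 and 488.7 TPM, above 98.7% and 99.0% of the genes with a TPM above 0 in each library. JUNB had 94.8 and 118.1 TPM, and JUN had 68.9 and 58.8 TPM. FOSL2 had 35.9 and 31.9 TPM, and JUND had 31.0 and 18.5 TPM. At the lower end were EGR1 with 16.4 and 7.58 TPM, ATF3 with 6.04 and 8.45 TPM, FOS with 1.75 and 1.91 TPM, and FOSB with 0.41 and 0.95 TPM. The order of the 10 genes was the same in both libraries, except that ATF3 passed EGR1 with FIN56. Whether neighbors in this order differ beyond the spread between cultures cannot be said from 1 library each.

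**Figure D1:**
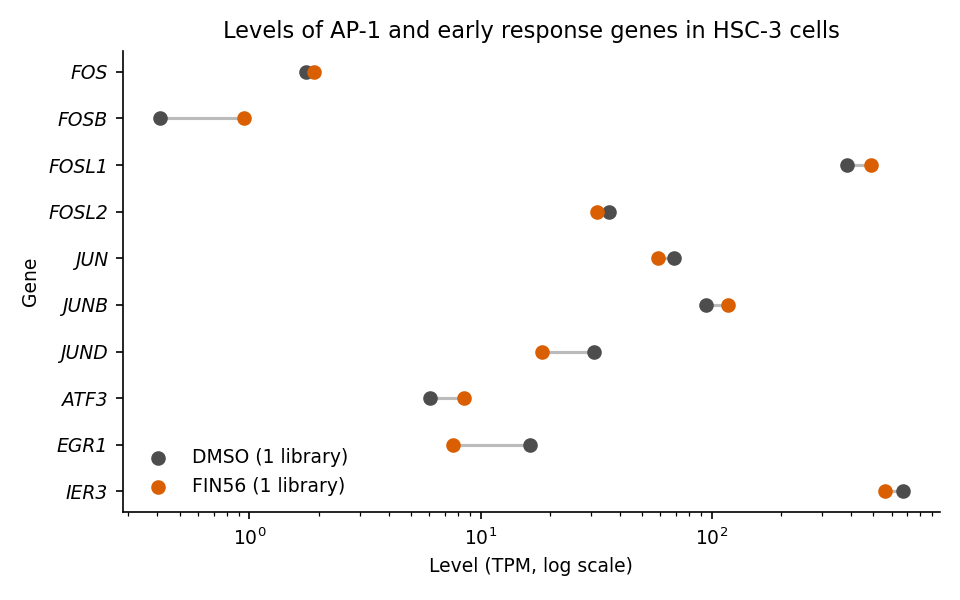
Level of each gene in TPM (log axis) in the DMSO library (grey) and the FIN56 library (orange), with a line joining the points of a gene. IER3 and FOSL1 stand highest, FOSB stands lowest, and EGR1, JUND and FOSB have the widest gaps between libraries.

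To ask which of the 10 genes differed with FIN56, the deposited FPKM of the FIN56 library was divided by that of the DMSO library, with 1.5 and 1/1.5 as thresholds after the study's own criterion. FPKM is a read count scaled for gene length and library depth. Of the 10 genes, 1 had a ratio of 1.5 or more, against 14.7% of the 24454 genes whose FPKM exceeded 0 in each library, and 2 had a ratio of 1/1.5 or less, against 17.3% of those genes. These shares are near the background. Low genes fill the background, and among the 12638 genes that reached an FPKM of 1 in each library the shares were 3.87% and 6.77%. Of the 9 members in that range (FOSB fell short of it), 0 were at 1.5 or more and 2 at 1/1.5 or less. In all, 5 of the 10 genes were higher and 5 lower with FIN56, with a median log2 FPKM ratio of -0.052 beside 0 for all genes. The 10 genes thus had no common direction.

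A 95% counting interval was set beside each ratio, as an exact Clopper-Pearson interval from the rounded expected counts scaled by the library totals. Beside an FPKM ratio it remains an interval of the count ratio. It covers counting error only and compares these libraries, not the conditions. This interval lay above 1 for 4 genes (FOSB, FOSL1, JUNB and ATF3) and below 1 for 5 (FOSL2, JUN, JUND, EGR1 and IER3), and it included 1 for FOS. At this depth small ratios can already leave out 1. The share of all genes whose interval left out 1 was not computed, so these counts have no background beside them.

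**Figure D2:**
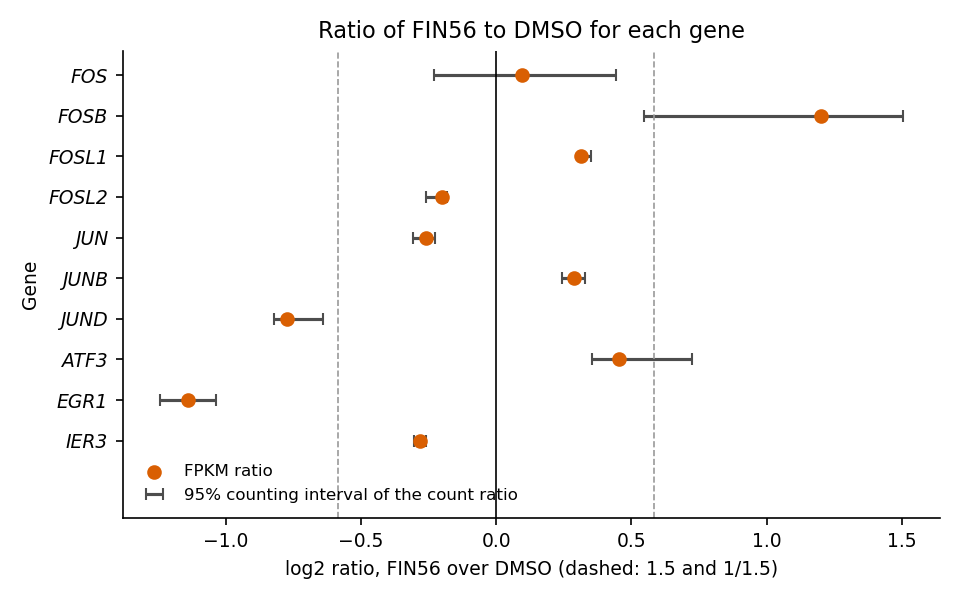
log2 ratio of FIN56 over DMSO for each gene, with points for the FPKM ratio, bars for the 95% counting interval of the count ratio, and dashed lines at 1.5 and 1/1.5. EGR1 and JUND lie left of the lower line with their whole bars, whereas the bars of FOSB and ATF3 cross the upper line.

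Among the FOS family, FOSL1 held nearly all of the transcripts. FOSL1 (ENSG00000175592, chromosome 11, 65892049 to 65900573, minus strand, GRCh38) had 27324 expected counts in DMSO and 35691 in FIN56, an FPKM of 257.4 and 319.7, and an FPKM ratio of 1.24. By counts the ratio was 1.25 (counting interval 1.24 to 1.27). It was therefore higher in the FIN56 library by more than counting error, and below the fold of 1.5. By summed TPM it made up 91.0% of the 4 FOS family genes in DMSO and 93.4% in FIN56.

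FOSL2 (ENSG00000075426, chromosome 2, 28392448 to 28417317, plus strand), which encodes FRA-2, went the other way. It had 10758 and 9604 expected counts, an FPKM of 23.98 and 20.88, and a ratio of 0.871 with a counting interval of 0.834 to 0.882. Its share of the family was 8.48% in DMSO and 6.10% in FIN56. The ratio of FOSL1 to FOSL2 within a library, which does not depend on the scaling between libraries, was 10.7 in DMSO and 15.3 in FIN56 by TPM.

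FOS and FOSB, the early and short-lived members, had the lowest levels of the 10 genes in both cultures. FOS (ENSG00000170345, chromosome 14, 75278826 to 75282230, plus strand) had 142 expected counts in DMSO and 159 in FIN56, an FPKM of 1.17 and 1.25, and a counting interval of 0.852 to 1.36. A difference in FOS was thus not detectable at this depth. FOSB (ENSG00000125740, chromosome 19, 45467995 to 45475179, plus strand) had 56 and 118 expected counts and an FPKM of 0.27 and 0.62. Its FPKM ratio of 2.30 was the highest of the 10 genes, and by counts the ratio was 2.02 (counting interval 1.46 to 2.83, with a lower end under 1.5). FOSB has 12 annotated transcripts in GENCODE release 44. The FPKM ratio can depart from the count ratio where RSEM estimates a different effective length, set by the mix of transcripts, in each library. ERCC1, which overlaps FOSB on the opposite strand, had 3133 and 2477 expected counts, a count ratio of 0.759. The library kit was stranded, but whether the counting used strand is not given in the sources used here, and the part of ERCC1 in the FOSB value was not tested. FOS and FOSB were minor parts of the FOS family in each library, at 0.414% and 0.0969% in DMSO and 0.365% and 0.181% in FIN56.

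**Figure D3:**
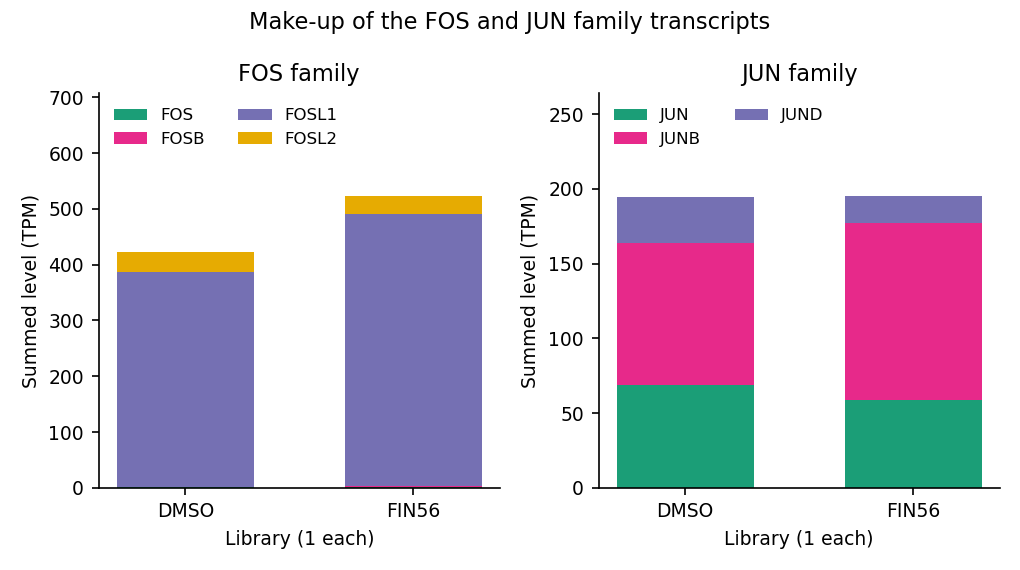
Summed level in TPM of the FOS family (left) and the JUN family (right) in each library, divided by gene, with FOS and FOSB too low to be seen. FOSL1 fills most of the FOS family, whose sum was 422.9 TPM in DMSO and 523.5 TPM in FIN56, and within a near equal JUN family sum JUNB takes a wider band and JUND a narrower one with FIN56.

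The JUN family had nearly the same summed level in both libraries and a different make-up. The 3 genes added up to 194.7 TPM in DMSO and 195.5 TPM in FIN56, a ratio of 1.00. Within this sum, JUNB made up 48.7% in DMSO and 60.4% in FIN56, JUN 35.4% and 30.1%, and JUND 15.9% and 9.47%. The sum of the FOS family had a ratio of 1.24 and was set by FOSL1.

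JUND (ENSG00000130522, chromosome 19, 18279694 to 18281622, minus strand) encodes the JUN protein that is commonly present in resting cells and is known to restrain growth and oxidative stress. It had 2556 expected counts in DMSO and 1604 in FIN56, and its FPKM was 20.73 and 12.11. The FPKM ratio was 0.584, a level 1.71-fold higher in DMSO, and by counts it was 0.603 (counting interval 0.566 to 0.642). Of the 12638 genes with an FPKM of at least 1, 402 (3.18%) had a ratio this low or lower. JUND is a gene of 1 exon whose transcript has a GC content of 69.9%, which placed it in the highest of 10 bins of genes by GC content. In that bin the median log2 FPKM ratio was -0.10, against 0.11 in the lowest bin. With ratios centred for GC and length, an alternative chosen after seeing the data, the JUND ratio was 0.627, still past 1/1.5.

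JUNB (ENSG00000171223, chromosome 19, 12791486 to 12793315, plus strand) also has 1 exon and lies in the same GC bin as JUND, at 64.9% GC. JUNB was higher with FIN56. It had 7703 and 9777 expected counts, an FPKM of 63.39 and 77.29, and a ratio of 1.22 with a counting interval of 1.18 to 1.26. After the same centring its ratio was 1.34. HOOK2, which overlaps JUNB on the opposite strand, had 1178 and 946 expected counts, a count ratio of 0.771, and its part in the JUNB value was not tested. JUN (ENSG00000177606, chromosome 1, 58776845 to 58784048, minus strand), the founding member of the family, had 9788 and 8467 expected counts, an FPKM of 46.08 and 38.48, and a ratio of 0.835 with a counting interval of 0.807 to 0.856. JUNB and JUN both remained within the fold of 1.5.

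The JUN genes were also read against each other within a library. JUNB exceeded JUND by 3.06-fold in DMSO and by 6.38-fold in FIN56 by TPM. From the counts, this relation differed 2.02-fold between the libraries, with a counting interval of 1.89-fold to 2.17-fold, computed through the log odds. JUNB over JUN was 1.38 in DMSO and 2.01 in FIN56, a difference of 1.47-fold by counts with an interval of 1.41 to 1.53. JUN over JUND was 2.22 and 3.18, a difference of 1.38-fold with an interval of 1.29 to 1.48. These pairs were chosen after their values were seen.

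ATF3 (ENSG00000162772, chromosome 1, 212565334 to 212620777, plus strand) is a stress-induced bZIP factor that can pair with JUN proteins and is a target of the integrated stress response. It had 397 expected counts in DMSO and 600 in FIN56, and an FPKM of 4.04 and 5.53. The FPKM ratio of 1.37 lay below 1.5, whereas the count ratio of 1.45 had a counting interval of 1.28 to 1.65 that reached past it. ATF3 was thus higher by more than counting error, and whether it reached a fold of 1.5 is within that error. The gene has 10 annotated transcripts.

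EGR1 (ENSG00000120738, chromosome 5, 138465479 to 138469303, plus strand), a zinc finger factor induced through SRF and its ERK-regulated partners, showed the lowest ratio of the 10 genes. Its expected counts were 2331 in DMSO and 1101 in FIN56, and its FPKM was 10.93 and 4.96. The FPKM ratio was 0.454, a level 2.20-fold higher in DMSO, and the count ratio of 0.454 had a counting interval of 0.422 to 0.488. Of the 12638 genes with an FPKM of at least 1, 108 (0.855%) had a ratio this low or lower. EGR1 has 1 annotated transcript, and its expected counts were whole numbers. Its transcript has a GC content of 55.3%, and after centring for GC content and length its ratio remained past 1/1.5.

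IER3 (ENSG00000137331, chromosome 6, 30743199 to 30744548, minus strand), also known as IEX-1, was lower by a smaller margin. It had 35934 and 30787 expected counts, an FPKM of 447.7 and 368.5, and a ratio of 0.823 with a counting interval of 0.811 to 0.836. Its expected count in DMSO was not whole. The antisense gene IER3-AS1, which overlaps it, had 7.79 expected counts in DMSO and was listed at 0 in FIN56, and HCG20, also on the opposite strand, had 21 in each library. Their part in the IER3 value was not tested. Within a library, IER3 exceeded EGR1 by 41.0-fold in DMSO and by 74.3-fold in FIN56 by TPM.

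**Figure D4:**
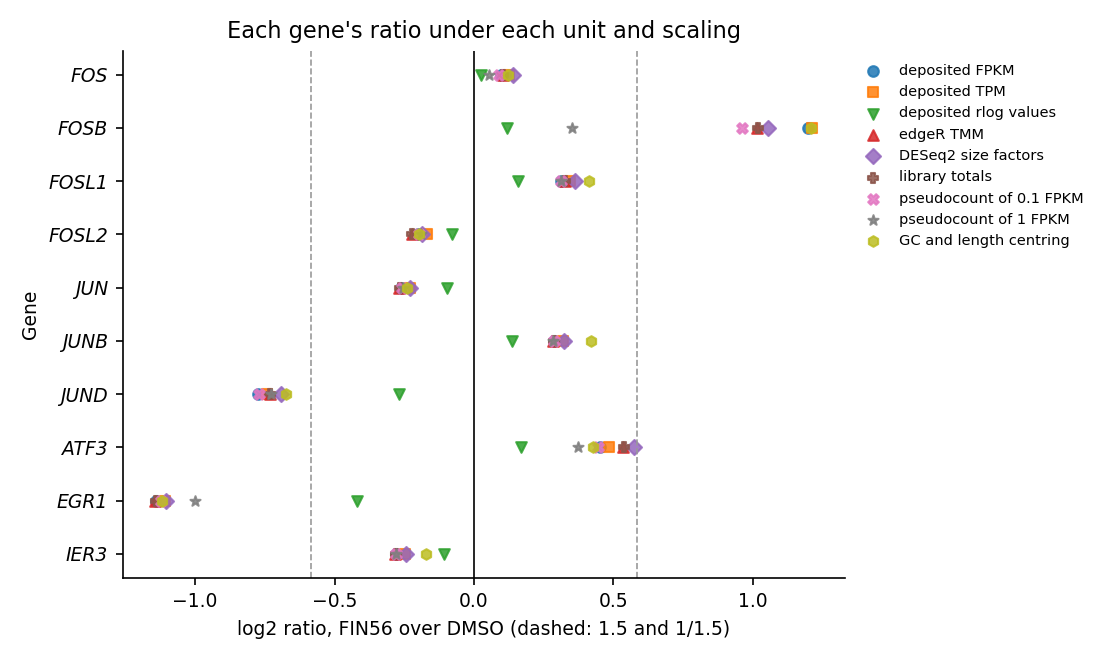
log2 ratio of FIN56 over DMSO for each gene under the deposited FPKM, TPM and rlog values, 3 scalings of the expected counts, pseudocounts of 0.1 and 1 FPKM, and centring for GC content and length (dashed lines at 1.5 and 1/1.5). Each gene stays on its side of 0 in every setting shown, and with rlog values every gene lies between the dashed lines.

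All 10 genes kept their direction under the alternatives that recompute a ratio. Among these, EGR1 and JUND were at 1/1.5 or less in each but 1, the rlog values deposited by the authors, which draw the libraries together (ratios of 0.748 and 0.829). FOSB was at 1.5 or more in each except the rlog values (1.08) and a pseudocount of 1 FPKM (1.28).

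The lower EGR1 was next compared with other early response genes, from a list of 31 genes outside the 10. A ratio could be formed for 30 of them, and 23 were above 1 and 7 below, with a median log2 FPKM ratio of 0.17. At 1.5 or more were 3 genes and at 1/1.5 or less were 3, against the 14.7% and 17.3% of all genes given above. Among the 22 with an FPKM of at least 1 in each library, 1 and 0 passed, beside 3.87% and 6.77% of all such genes. The counting interval lay above 1 for 16 genes and below 1 for 2, and the same shares over all genes were not computed. IER2, an early response gene related to IER5, had 3039 (DMSO) and 4252 (FIN56) expected counts and an FPKM ratio of 1.36. DUSP1, a phosphatase that switches off MAP kinases, had 303 and 445 expected counts and a ratio of 1.41. ZFP36, which speeds the decay of short-lived mRNA, had a ratio of 1.11 from 1352 and 1582 counts. NR4A1, a nuclear receptor, had 127 and 181 counts, an FPKM ratio of 1.08 and a count ratio of 1.37. Past 1.5 were IER5L, at 1.60 from 2305 and 3831 counts, and NR4A2, at 1.66 from 69 and 125 counts. KLF2, named after its value was seen, was at 2.61, from 27 and 44 counts with an interval of the count ratio of 0.948 to 2.63 that included 1.

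The 3 genes of this list at 1/1.5 or less were the paralogs of EGR1 (EGR2, EGR3 and EGR4), and all rested on very few counts. EGR2 had 3 expected counts in DMSO and 5 in FIN56, so that its FPKM ratio of 0.50 and its count ratio of 1.60 (counting interval 0.311 to 10.3) pointed in opposite directions. EGR3 had 5 counts and 1, with a count ratio of 0.192 and an interval of 0.00406 to 1.72, and EGR4, named after its value was seen, had 7 and 5. EGR1 was thus the EGR gene with a readable level in these cells. The ratio of IER2 to EGR1 within a library was 1.88 in DMSO and 5.66 in FIN56 by TPM, and by counts it differed 2.96-fold between the libraries with an interval of 2.72 to 3.23. This pair was chosen after its values were seen, so the interval describes these libraries and tests nothing.

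The regulators upstream of these genes were compared next. Of 15 genes for MAP kinases, MAP kinase kinases, SRF, its ELK and MRTF partners and the NAB corepressors of EGR proteins, 0 reached 1.5 or 1/1.5, and the FPKM ratios ran from 0.768 to 1.27. All 15 had an FPKM of 1 or more, a range in which 3.87% and 6.77% of genes passed, so that few of 15 genes would pass in any case. SRF had 1398 (DMSO) and 1680 (FIN56) expected counts and a ratio of 1.15. NAB2, which binds EGR1 and is itself an EGR1 target, had 2956 and 2544 counts, with a ratio of 0.834 and an interval of 0.784 to 0.872. These are transcript levels, and kinase activity was not measured in these libraries.

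The other bZIP partners of AP-1 were mixed. Of 12 BATF, JDP2, ATF and MAF genes 11 could be compared, of which 4 were above 1, 6 below and 1 equal, with a median log2 FPKM ratio of -0.031. None was at 1.5 or more (0 genes, beside 14.7% of all genes), and 3 were at 1/1.5 or less (beside 17.3%). BATF3, from 74 and 49 expected counts, had an FPKM ratio of 0.659 and a count ratio of 0.636 with an interval of 0.434 to 0.925. The others, MAF with 51 and 29 counts and MAFA with 14 and 10, are named here after their values were seen. By counts the MAFA ratio was 0.686, which did not reach 1/1.5, with an interval of 0.273 to 1.66 that included 1. The number at 1/1.5 or less went from 3 to 2 with TPM and with each scaling of the counts. It was 0 with rlog values and with pseudocounts of 0.1 and 1 FPKM. At an FPKM of 1 or more in each library, 6 of these genes were left and 0 passed either threshold, beside 3.87% and 6.77% of all such genes.

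Genes commonly cited as AP-1 targets lay on both sides. Of 24 genes, 15 were above 1 and 9 below, and the median log2 FPKM ratio was 0.099. At 1.5 or more were 7 genes (beside 14.7% of all genes) and at 1/1.5 or less were 4 (beside 17.3% of all genes). Among the 19 with an FPKM of at least 1, 5 and 2 passed, beside the background of 3.87% and 6.77%. This list too was written with earlier results of these data known, so these shares do not test it. MMP3, a matrix protease, had 759 (DMSO) and 1863 (FIN56) expected counts and a ratio of 2.52. PLAUR, the urokinase receptor, had 1210 and 3075 counts and a ratio of 2.47, and CCND1, which encodes cyclin D1, had a ratio of 1.70. In contrast, HMGA1, a chromatin protein, had a ratio of 0.604. The collagenase MMP13 had 152 and 109 counts, an FPKM of 0.88 and 0.58, and a ratio of 0.659. By counts the MMP13 ratio was 0.689 (counting interval 0.534 to 0.887), which did not reach 1/1.5. SPRR2A, also at 1/1.5 or less by FPKM, rested on 6 and 3 counts and was named after its value was seen. Of the genes at 1.5 or more by FPKM, IVL rested on 4 and 8 counts. LIF had an FPKM ratio of 1.53 but a count ratio of 1.19 with an interval of 0.990 to 1.44 that included 1. IVL and LIF were also named after their values were seen. Several of these genes are targets of other factors too, and a list of this kind does not measure AP-1 activity.

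Feedback genes of ERK signaling were compared because ERK controls both FOSL1 and EGR1. All 12 genes of that list were above 1 in FPKM ratio, 6 of them at 1.5 or more (beside 14.7% of all genes), with a median log2 FPKM ratio of 0.63 beside 0 for all genes. Of the 11 that reached an FPKM of 1 in each library, 5 were at 1.5 or more, beside 3.87% of all such genes. The list was written with earlier results of these data known, so its excess over that share is not a test. The counting interval lay above 1 for 11 of the 12 and included 1 for SPRY1 (237 and 280 counts, named after its value was seen). The share of all genes with an interval above 1 was not computed. SPRY4, an inhibitor of receptor signaling, had 1302 and 2878 expected counts and a ratio of 2.17. The ERK phosphatases DUSP6 and DUSP4 had ratios of 2.02 and 1.84. FOSL1 at 1.24 was on the same side as these genes, and EGR1 at 0.454 was on the opposite side. No difference between the lists was tested, since each has 1 library per condition.

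**Figure D5:**
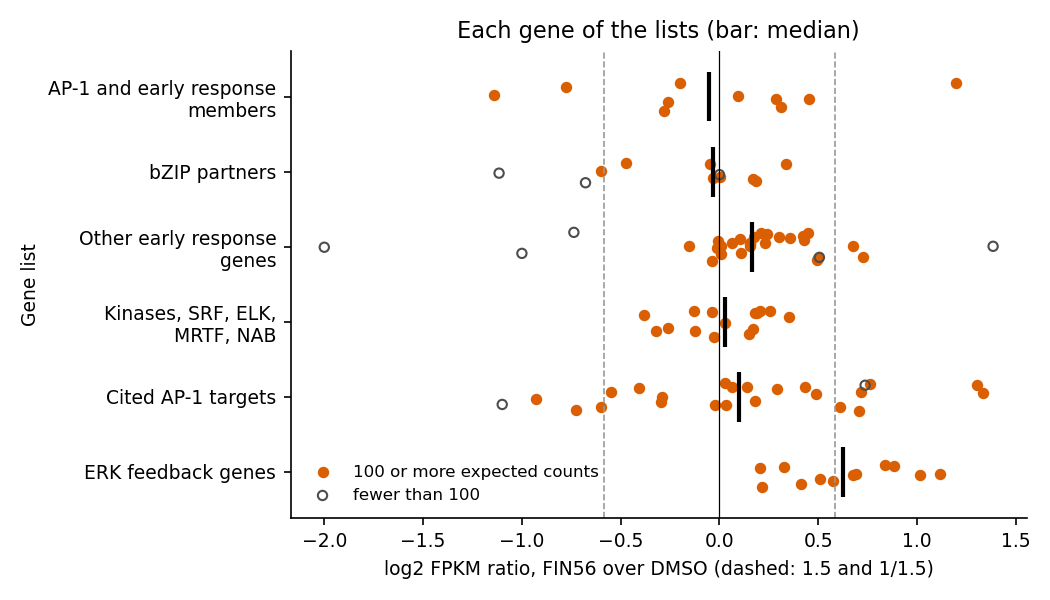
log2 FPKM ratio of FIN56 over DMSO for each gene of the 10 members and of 5 further lists, with filled points for genes of 100 or more expected counts over the pair of libraries, open points for fewer, and a bar at the median of each list. The ERK feedback genes all lie right of 0 around a median of 0.63, and the 10 members spread to both sides.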

How the data were processed

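Total RNA of HSC-3 cells was sequenced after a stranded mRNA kit, as 1 DMSO and 1 FIN56 library. The submitters' processing notes list FastQC 0.11.7, STAR 2.6.1a, RSEM 1.3.1 and DESeq2 1.26.0 and the build GRCh38. The paper describes these steps for its tumor libraries, with the annotation of Ensembl release 94, and they are taken to hold here. The authors deposited expected counts without normalization, FPKM and TPM scaled for gene length and depth and rounded to 2 decimals, and rlog values, a log2 transformation that shrinks differences between libraries. Each of the 8 columns carries its library's name.

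Ratios of FPKM (FIN56 over DMSO) were formed for genes above 0 in both libraries and compared with 1.5 and 1/1.5 in whole hundredths of FPKM. With 1 library per condition no test was run. Expected counts were rounded for the 95% counting intervals, which cover counting error only. The reads carry no molecular identifiers and may be copies of 1 molecule, so the intervals can be too narrow even for that error. Intervals of ratios between genes within a library used the log odds, and all such pairs of genes were chosen after their values were seen. The members and lists were chosen with earlier results of these data known, and the lists were written from general knowledge. From each list, the genes named are up to 3 with the highest and 3 with the lowest ratio among those past a threshold with at least 100 expected counts over the pair of libraries, and EGR2, EGR3, IER2, DUSP1, ZFP36, NR4A1, NAB2 and SRF whatever their values. Some genes that the lists hold are counted but not reported here by name. Further genes are overlapping genes, cell type markers, or marked as named after their values were seen.

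Alternatives were TPM, rlog, edgeR 4.0.16 TMM factors, DESeq2 1.42.0 size factors, library totals, pseudocounts of 0.1 and 1 FPKM, minimum values of 1 FPKM or 10 expected counts per library, and a threshold of 2. Centring by GC content (10 bins) and then by length (10 bins), set on genes of 50 or more expected counts, was added after seeing the data. Positions, transcripts and GC content came from GENCODE release 44 (GRCh38), which is later than the authors' annotation, and promoters from RefSeq, where 8 of the 10 genes matched. The count ratio and its counting interval were tested on simulated counts that held no spread between cultures. The FPKM ratios, the centring and the sequence matches were not tested in this way. Software was R 4.3.3 and Python 3.11.15 (numpy 2.4.6, pandas 2.3.3, scipy 1.17.1, matplotlib 3.10.9).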

Additional observations from a re-analysis of the deposited data

How the results depend on the processing

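With 1 library per condition no replicate could be left out, no paired fit exists, and the spread between cultures is unknown. FOSB moved from a ratio of 2.30 to 1.08 with rlog values and 1.28 with a pseudocount of 1 FPKM, JUND from 0.584 to 0.829 with rlog values and 0.627 with centring for GC content and length, and EGR1 from 0.454 to 0.748 with rlog values and 0.500 with a pseudocount of 1 FPKM. Members at 1.5 or more went from 1 to 0 with rlog values, with a pseudocount of 1 FPKM and with a minimum FPKM of 1, which leaves out FOSB. Members at 1/1.5 or less went from 2 to 0 with rlog values and to 1 (EGR1) at a threshold of 2. The median log2 ratio of the members went from -0.052 to -0.20 with an FPKM of at least 1, since FOSB drops out.

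Over all genes, 3583 were at 1.5 or more and 4240 at 1/1.5 or less. These became 7 and 16 with rlog values, 476 and 785 with a pseudocount of 1 FPKM, 489 and 855 with an FPKM of at least 1, 1323 and 1936 with at least 10 expected counts, and 2088 and 2384 at a threshold of 2. Filters test fewer genes, and rlog and pseudocounts shrink ratios by construction. No scaling moved the median log2 ratio of all genes by more than 0.1.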
